A study of Mus musculus with 4 samples.

Results

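The genes described here are Xcl1, Xcr1, Flt3l, Flt3, Il12b and Batf3, the chemokine, growth factor and cytokine genes through which natural killer (NK) cells and T cells and dendritic cells communicate in a tumour. They were taken by symbol from the feature table that all 4 libraries share, where these 6 genes are found once each among 32285 genes. In mice, XCL1 (lymphotactin) is a chemokine secreted by NK cells and activated CD8 T cells, and XCR1 is its receptor on type 1 conventional dendritic cells (cDC1), which present tumour antigen to CD8 T cells. FLT3 ligand, encoded by Flt3l, is a growth factor for dendritic cells, and FLT3 is its receptor tyrosine kinase. BATF3 is a transcription factor that cDC1 development requires, and Il12b encodes the subunit that IL-12 and IL-23 share, which mature dendritic cells make when they prime T cells.

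Mice were engrafted with MC38b tumours (MC38 is a mouse colon carcinoma line) and tumours were taken 24 hours after the second of 2 doses. The anti-PD-1 group (1 library) received an antibody to PD-1, an inhibitory receptor of T cells. The combination group (1 library) received antibodies to PD-1 and to TL1A, a ligand of the tumour necrosis factor family, and the PBS group (2 libraries, PBS 1 and PBS 2) received saline. The labels state 4 treated animals and 2 saline animals, whose cell suspensions were pooled in equal numbers before sorting, without saying how the animals fall on the libraries. Age, sex, strain and antibody doses are not given in the sources used here. Cells were sorted as CD45-positive CD3-positive, CD45-positive CD3-negative and CD45-negative CD3-negative, remixed 9:9:2, and loaded at 20000 cells per condition on a 10x Genomics droplet system, which counts transcripts by unique molecular identifiers (UMIs). Shares of cells are therefore given within a sorted gate.

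The kept cells numbered 11523 in the anti-PD-1 library, 9932 in the combination library, 6219 in PBS 1 and 5957 in PBS 2, with median depths of 3588, 7098, 7798 and 7645.5 UMIs per barcode before filtering. Cell classes were rebuilt here from marker genes after clustering without the 6 genes, so every class name means cells like that type. The anti-PD-1 library shared 1774 barcodes with PBS 2 and 1243 with PBS 1, and the PBS libraries shared 673 with each other, against 19 to 39 for the combination library. The shallower copies of barcodes shared among those libraries had median depths of 762 to 788 UMIs, and most lay in clusters of low-UMI cells that were kept out of all classes. Where leaving out all shared barcodes turned a member's fold change round or changed its call, the value without them is given beside it or with the processing alternatives. Fold changes come from UMI counts summed per class and library, where only the PBS pair shows a spread between libraries (edgeR's quasi-likelihood test, Benjamini-Hochberg adjusted over all genes tested in a class, two-sided, threshold 0.05). Both treatments are set against the same PBS pair, and a comparison of the combination with anti-PD-1 compares 2 libraries, not 2 conditions. Nothing says that the libraries of one group hold separate animals, so the p-values may measure only technical spread, and in pooled suspensions a change in cell number and a change in RNA per cell can be separated only by the class counts.

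Promoter sequences are shown for 3 members, the ligand gene Xcl1, its receptor gene Xcr1 and the cytokine gene Il12b. Each is the 250 bases before the RefSeq start on the gene's own strand, read 5′ to 3′ in build GRCm38.p6, with matches to the searched motifs in capitals. The windows lie at chr1:164935523-164935772 (minus strand) for Xcl1, chr9:123862030-123862279 (minus strand) for Xcr1 and chr11:44399813-44400062 (plus strand) for Il12b.
Xcl1: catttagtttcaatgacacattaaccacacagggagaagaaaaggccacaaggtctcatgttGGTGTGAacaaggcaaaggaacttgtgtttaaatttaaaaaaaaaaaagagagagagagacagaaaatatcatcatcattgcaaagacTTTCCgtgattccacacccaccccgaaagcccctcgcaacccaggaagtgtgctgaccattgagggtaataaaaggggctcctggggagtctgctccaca
Xcr1: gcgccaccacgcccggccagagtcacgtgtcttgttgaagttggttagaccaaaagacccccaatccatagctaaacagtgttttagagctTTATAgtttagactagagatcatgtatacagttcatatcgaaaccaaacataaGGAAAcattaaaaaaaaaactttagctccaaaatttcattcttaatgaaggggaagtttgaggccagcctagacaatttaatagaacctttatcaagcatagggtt
Il12b: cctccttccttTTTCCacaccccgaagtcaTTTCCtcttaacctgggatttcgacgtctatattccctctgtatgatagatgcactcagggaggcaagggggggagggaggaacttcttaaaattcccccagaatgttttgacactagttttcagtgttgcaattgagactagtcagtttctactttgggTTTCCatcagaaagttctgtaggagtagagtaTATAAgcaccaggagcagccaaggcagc
The Xcl1 window held 1 T-box motif (GGTGTGA, from 188 bases before the start), the element that TBX21 and EOMES recognise, and 1 NFAT core (GGAAA, here as TTTCC on the other strand, from 100 bases before the start). The Xcr1 window held 1 NFAT core and 1 TATAA on the other strand, and the Il12b window held 3 NFAT cores on the other strand and TATAA from 28 bases before the start. Of 27025 RefSeq promoter windows of the same length, 3.31% held GGTGTGA, 55.6% GGAAA and 23.5% TATAA, counting both strands. No member's window matched the AP-1 motif TGANTCA, which 6.87% of the windows held. A match is a run of letters in the window and shows no binding.

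Xcl1 was a gene of NK cells, of CD3-positive cells led by Klra receptor genes (Klra T cells) and of CD8 T cells, in that order of median level over the libraries. NK cells held 642 and 758 CPM (UMIs scaled to the same total in every class and library) in the anti-PD-1 and combination libraries, against 1149 and 856 CPM in PBS 1 and PBS 2. The Klra T cells followed at 293 and 390 CPM, against 381 and 370 CPM in PBS 1 and PBS 2, and CD8 T cells at 179 and 192 CPM, against 434 and 261 CPM. The ranges of the Klra T cells and CD8 T cells overlapped, whereas the NK cells stood above both in all 4 libraries. NK cells supplied 63.6% and 58.9% of all Xcl1 UMIs in the anti-PD-1 and combination libraries, against 58.4% and 57.6% in PBS 1 and PBS 2. The CD8 T cells supplied 25.6% and 27.7%, against 31.3% and 31.2%, and the Klra T cells nearly all of the rest. In droplet data free RNA also gives UMIs to cells that do not make a gene. Xcl1 UMIs were found in 55.8% and 62.1% of NK cells in the anti-PD-1 and combination libraries (median depths 4673 and 5685 UMIs), against 75.9% and 69.9% in PBS 1 and PBS 2 (7731 and 7571 UMIs). In monocytes and macrophages, which are not known sources of XCL1, the share was 1.51% and 3.61%, against 2.51% and 2.15%. Those cells had medians of 5804 and 8012 UMIs, against 10529 and 12182.

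**Figure D1:**
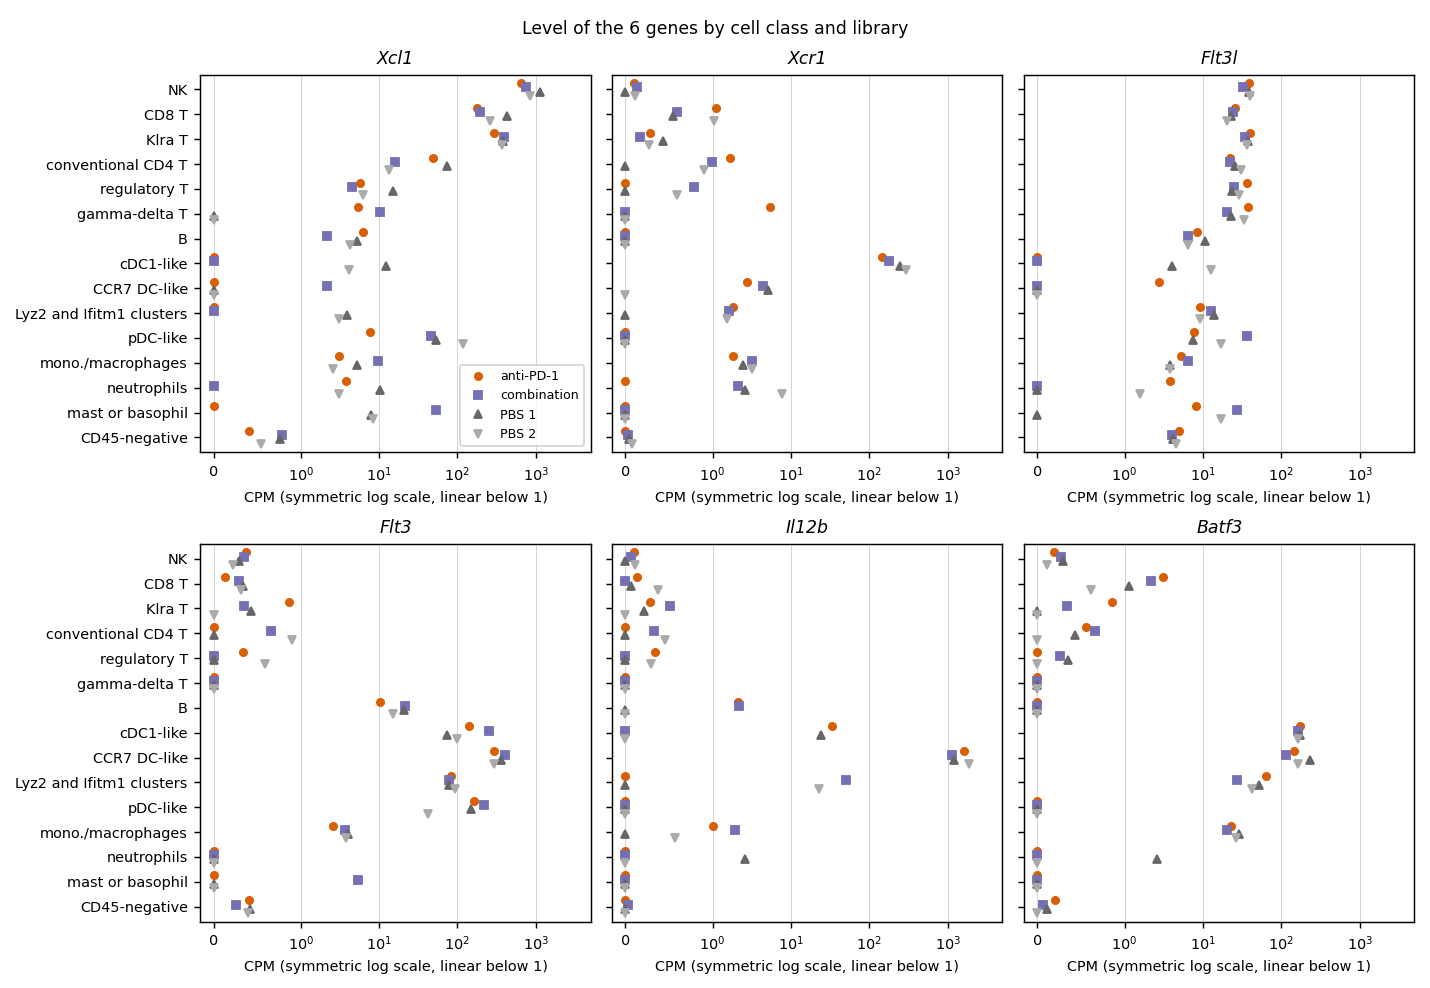
Level of each of the 6 genes by cell class and library, as CPM of the class's UMIs on a symmetric log axis that is linear below 1, 1 point per library. Xcl1 is highest in NK cells in every library, Xcr1 in cDC1-like cells, and Flt3 and Il12b in CCR7 DC-like cells.

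Within NK cells, clusters with more Itga1 than Itga2 were called ILC1-like, after tissue-resident cells that carry Itga1, and the others conventional NK cells. No other marker was used for this split. The ILC1-like cells held more Xcl1 than the conventional NK cells. They include a cycling cluster with 925 CPM of Mki67, 158 CPM of Cd3e and 966 CPM of Xcl1 over all libraries. ILC1-like cells had 800 and 1041 CPM in the anti-PD-1 and combination libraries, against 1449 and 1238 CPM in PBS 1 and PBS 2. Conventional NK cells had 412 and 469 CPM, against 638 and 445 CPM. The ratio of ILC1-like to conventional cells ran from 1.94 to 2.78 over the 4 libraries, as a description of clusters. In the NK class as a whole both treated libraries lay below both PBS libraries. The log2 change was -0.56 ± 0.21 (SE; adjusted p = 0.284) with anti-PD-1 and -0.42 ± 0.21 (adjusted p = 0.471) with the combination, neither past the threshold. Of all 13780 genes tested in NK cells 0.428% passed for anti-PD-1, 0.856% for the combination and 0.269% between the treated libraries. In ILC1-like cells alone, where 0.209% of genes passed, the anti-PD-1 change was -0.65 ± 0.16 with an adjusted p of 0.123. There the call depended on the settings, since 8 of 11 alternative analyses put it past the threshold, with log2 changes between -0.76 and -0.58. Leaving out shared barcodes was among the 8, at -0.76 with an adjusted p of 0.0426. The number of all genes past the threshold moved as well, from 26 in the chosen analysis to between 25 and 694 in the alternatives. For the combination the ILC1-like change was -0.38 ± 0.15 (adjusted p = 0.324), and 0.314% of genes passed. In conventional NK cells it was -0.33 ± 0.17 with anti-PD-1 and -0.20 ± 0.16 with the combination (adjusted p = 0.496 and 0.844, with 0.628% and 0.578% of genes past the threshold). Between the treated libraries it was 0.26 ± 0.18 in ILC1-like cells, where 0.0322% of genes passed, and 0.12 ± 0.19 in conventional NK cells, where 0.854% did. Without PBS 1 those conventional NK values became 0.00 and 0.12, and the NK values as a whole -0.27 and -0.14, so the size of the difference depended on PBS 1. Scaled by library totals in place of TMM, the anti-PD-1 change in all NK cells was -0.64 and passed (adjusted p = 0.0457). With that scaling 281 genes passed in NK cells, against 59 with TMM. Thinned to 1000 UMIs per cell, 28.1% and 31.6% of NK cells held an Xcl1 UMI in the anti-PD-1 and combination libraries, against 43.7% and 34.6% in PBS 1 and PBS 2. With shared barcodes left out the NK levels were 645 and 759 CPM, against 1083 and 750 CPM, so that PBS 2 then lay below the combination library.

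Activated lymphocytes release other cytokines together with XCL1. In NK cells none of Ccl3, Ccl4, Ccl5, Ifng, Csf2 and Tnf passed the threshold in either treatment by edgeR, and their median log2 change was 0.07 with anti-PD-1 and 0.05 with the combination, against a median of -0.02 over all genes tested in both. The regulators of the NK and type 1 lymphocyte state, among them Eomes, Tbx21, Ncr1 and Nfil3, likewise gave no call among 11 tested, with medians of -0.01 and 0.01. Among all genes in NK cells the smallest adjusted p values with anti-PD-1 belonged to the granzyme genes Gzmf (log2 change 2.81 ± 0.13), Gzmd (1.85 ± 0.13) and Gzme (1.86 ± 0.13), which encode cytotoxic granule proteases, and to the interferon-induced membrane genes Ifitm3 and Ifitm2. With the combination the same 3 granzyme genes rose (2.39 ± 0.13, 1.42 ± 0.13 and 1.41 ± 0.13). Kit, the receptor of stem cell factor, rose with the combination (0.73 ± 0.13, adjusted p = 0.0053) and was the single call among the FLT3 and growth factor partners in NK cells.

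Among CD8 T cells Xcl1 was concentrated in few cells. The tenth of cells with the most Xcl1 UMIs held 90.8% and 90.9% of them in the anti-PD-1 and combination libraries, against 83.0% and 88.0% in PBS 1 and PBS 2, compared with 50.2% to 59.3% for NK cells. One CD8 cluster led by Ifng, Ccl4, Ccl3 and Xcl1 held 45.4% and 55.3% of the CD8 Xcl1 UMIs, against 39.1% and 48.6%, in 8.64% and 6.80% of the CD8 T cells, against 5.08% and 7.51%. In this cluster Xcl1 stood at 1117 and 1844 CPM in the anti-PD-1 and combination libraries (179 and 176 cells), against 3659 and 1956 CPM in PBS 1 and PBS 2 (68 and 95 cells). Its Ifng ran the other way, at 5789 and 4562 CPM, against 2631 and 1954 CPM, and its Ccl3 stood at 2998 and 3900 CPM, against 2121 and 1351 CPM. Ccl4 there had 6269 and 12090 CPM, against 6487 and 5160 CPM. Both treated libraries thus lay below both PBS libraries for Xcl1 and above both for Ifng and Ccl3. The cluster was formed without Xcl1 and was picked by its Ifng and Ccl4 levels. The other CD8 T cells held 105 and 91.1 CPM of Xcl1, against 277 and 143 CPM.

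**Figure D2:**
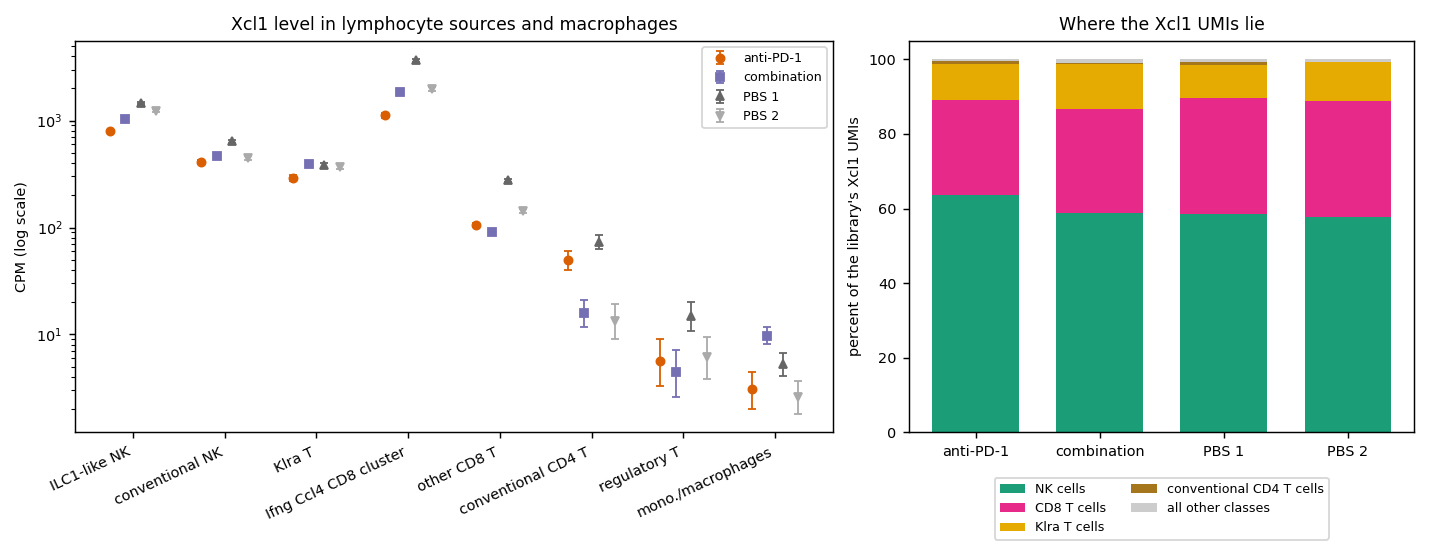
Xcl1 in its source cells by library, in CPM of the class's UMIs with exact 95% Poisson intervals (log scale), beside the share of each library's Xcl1 UMIs by class. The Ifng Ccl4 CD8 cluster reaches 3659 CPM in PBS 1 and 1117 CPM in the anti-PD-1 library, and the ILC1-like NK cells stand above the conventional NK cells in all 4 libraries.

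Over all CD8 T cells the log2 change of Xcl1 was -0.87 ± 0.67 with anti-PD-1 (adjusted p = 0.760) and -0.85 ± 0.67 with the combination (adjusted p = 0.783), where 5.58% and 4.08% of genes passed. The PBS libraries themselves stood apart, at 434 and 261 CPM. Without PBS 1 the changes were -0.41 and -0.39, and with library totals the anti-PD-1 change passed (-0.96, adjusted p = 0.0257). With anti-PD-1, 3 of the 6 co-secreted cytokine genes rose, Ifng by 1.10 ± 0.14 (adjusted p = 5.8e-08), Ccl3 by 1.05 ± 0.16 and Ccl5 by 0.82 ± 0.21, and the list's median was 0.55 against -0.01 over all genes. With the combination 2 rose, Ccl3 by 1.01 ± 0.16 and Ccl4 by 0.83 ± 0.17, with a median of 0.44 against -0.02 over all genes. Without the cluster that Ifng and Ccl4 led, these calls were reduced to Ccl5 with anti-PD-1 (0.85 ± 0.20, adjusted p = 0.0482, 2.22% of genes past the threshold) and to none of the 6 with the combination by edgeR (1.72%), with medians of 0.26 and 0.21. Of the 11 source regulators, Nr4a1 (-0.40 ± 0.11) and Nr4a3 (-0.39 ± 0.12), immediate early genes of antigen receptor signalling, fell with anti-PD-1. With the combination Nr4a3 (-0.48 ± 0.12) and Eomes (-0.54 ± 0.14) fell and Tnfrsf9 (0.49 ± 0.14), which encodes the costimulatory receptor 4-1BB, rose. Xcl1 in CD8 T cells without the Ifng Ccl4 cluster did not pass in the chosen analysis. With no filter on low counts it did, at -0.92 with anti-PD-1 (adjusted p = 8.3e-11) and -1.18 with the combination (adjusted p = 8.9e-19). For each treatment 10 alternatives did not put it past the threshold. With no filter the genes past the threshold there went from 320 to 768 and from 248 to 760. Whether Xcl1 and the cytokines changed unequally was not tested.

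In Klra T cells the Xcl1 change was -0.31 ± 0.13 with anti-PD-1 (adjusted p = 0.280, 1.38% of genes past the threshold) and 0.02 ± 0.12 with the combination (adjusted p = 0.974, 2.99%); without PBS 2 the combination value was -0.03. Conventional CD4 T cells carried Xcl1 mainly in a cluster led by Tnfsf8, Tnfsf11 and Penk, with 287 and 27.5 CPM in the anti-PD-1 and combination libraries, against 286 and 13.3 CPM in PBS 1 and PBS 2. The anti-PD-1 library and PBS 1 were thus high and the other two low. The fitted changes over all conventional CD4 T cells were 0.23 ± 1.67 with anti-PD-1 and -1.47 ± 1.84 with the combination (0.0469% and 0.0937% of genes past the threshold), and they changed sign to -0.53 without PBS 2 and to 0.24 without PBS 1. Alternatives gave other calls. The combination change passed with thinned sums (-1.42, adjusted p = 0.0164) and when the clustering included the 6 genes (-1.73, adjusted p = 0.00031), and with no doublets removed it was 0.016 (adjusted p = 0.999). Against the anti-PD-1 library it passed in these 2 alternatives (-1.68 and -2.38) and at the higher resolution (-2.09, adjusted p = 0.00997), and with no doublets removed it was 0.71. Regulatory T cells held 5.70 and 4.47 CPM, against 14.9 and 6.20 CPM, with changes of -0.79 ± 0.53 and -1.19 ± 0.52 that did not pass (adjusted p = 0.608 and 0.599, with 0.557% and 0.429% of genes past the threshold). In pDC-like cells Xcl1 came from 1 and 9 UMIs, against 7 and 14 UMIs.

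Xcl1 passed the test in one class, outside the lymphocytes. In monocytes and macrophages 27 and 121 UMIs were counted in the anti-PD-1 and combination libraries, against 65 and 32 in PBS 1 and PBS 2, in 18 and 40 cells, against 22 and 16. The change with the combination was 1.33 ± 0.30 (adjusted p = 0.0031) over PBS and 1.59 ± 0.40 (adjusted p = 0.0096) over the anti-PD-1 library, in a class where 8.37% and 7.92% of genes passed. With anti-PD-1 it was -0.26 ± 0.39 (adjusted p = 0.749, 13.6% of genes) and 0.36 without PBS 1. T cell markers moved with it. The summed level of Cd3e, Cd3d, Cd3g, Trac and Cd2, of which all 5 were detected, was 49.6 and 163 CPM, against 73.7 and 56.9 CPM, and that of the 6 NK markers 18.8 and 36.8 CPM, against 21.0 and 11.2 CPM. Of the Xcl1 UMIs, 2 and 61, against 52 and 9, lay in the macrophage cluster with the deepest cells (median 18034 and 30596 UMIs, against 30258 and 35108). When no doublets were removed the combination change was -0.06 (adjusted p = 0.956), and by DESeq2 it was 1.34 with an adjusted p of 0.790. Over the anti-PD-1 library the change missed the threshold in 4 alternatives, at 1.67 with library totals, 1.61 with no filter, 1.59 without shared barcodes and 0.57 with no doublets removed. The part of the marker genes in the result was not tested.

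Flt3l was spread over lymphocytes at low levels, with no class standing apart from its neighbours. NK cells had 38.7 and 32.6 CPM in the anti-PD-1 and combination libraries, against 39.1 and 39.8 CPM in PBS 1 and PBS 2. The Klra T cells had 39.9 and 34.1 CPM, against 37.9 and 36.6 CPM, and regulatory T cells 36.2 and 24.96 CPM, against 23.8 and 28.9 CPM. Conventional CD4 T cells had 21.9 and 22.3 CPM, against 25.3 and 31.02 CPM, and CD8 T cells 25.4 and 24.0 CPM, against 23.1 and 20.5 CPM. The ranges of neighbouring classes in this order overlapped. Monocytes and macrophages held 5.21 and 6.43 CPM, against 3.82 and 3.83 CPM, so NK cells were 5.06 to 10.4 times higher. Unlike Xcl1, Flt3l was low in the Ifng Ccl4 CD8 cluster, with 4.46 and 6.44 CPM, against 11.7 and 5.75 CPM, from 5 to 10 UMIs per library, while other CD8 T cells held 2.03 to 6.06 times as much. No Flt3l change passed in the chosen edgeR analysis in the 7 of 8 classes where it had enough counts. The values nearest to a call were 0.78 ± 0.30 in monocytes and macrophages with the combination (adjusted p = 0.0995), which passed with thinned sums (1.08, adjusted p = 0.0429), and 0.31 ± 0.15 in CD8 T cells with anti-PD-1 (adjusted p = 0.247). In NK cells the changes were 0.06 ± 0.15 and -0.29 ± 0.15. The annotated gene overlaps Gm45713 on the same strand, and 33.6% of the 31-base words in its last 500 transcribed bases recur in other genes' transcripts, so its counts are uncertain.

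Xcr1 had its highest level in the cDC1-like cells. They held 38.8% and 39.1% of the Xcr1 UMIs in the anti-PD-1 and combination libraries, against 57.7% and 50.4% in PBS 1 and PBS 2. The more numerous monocytes and macrophages held 23.9% and 34.8%, against 28.8% and 28.1%. The cDC1-like cells numbered 35 and 18 in the anti-PD-1 and combination libraries, against 16 and 12 in PBS 1 and PBS 2. They carried the cDC1 markers Clec9a (168 to 423 CPM), Cadm1, Naaa and Wdfy4 (1050 to 1392 CPM) in every library, with Ccr7 at no more than 23.7 CPM and Siglech at no more than 4.09 CPM. Xcr1 had 144 CPM (95% interval 94.3 to 212) and 178 CPM (130 to 238) in the anti-PD-1 and combination libraries, against 245 CPM (187 to 316) and 293 CPM (228 to 370) in PBS 1 and PBS 2. Those levels came from 26 and 45 UMIs, against 60 and 70. Both treated libraries lay below both PBS libraries, but with fewer than 20 cells in 3 libraries no test was made in this class. Leaving out all shared barcodes removes their deeper copies too, which had median depths of 22314 to 66174 UMIs among the anti-PD-1 and PBS libraries. Shared barcodes carried much of the PBS signal. Without them Xcr1 had 22 UMIs in 27 cells (127 CPM) and 45 UMIs in 18 cells (178 CPM) in the anti-PD-1 and combination libraries, against 10 UMIs in 9 cells (99.9 CPM) and 31 UMIs in 7 cells (304 CPM) in PBS 1 and PBS 2, so the groups then overlapped.

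In other classes Xcr1 reached at most 7.78 CPM, in neutrophils of PBS 2. CD8 T cells held 17 and 16 Xcr1 UMIs, against 8 and 17, and all but 1 of the positive cells had a single UMI. Tested over all dendritic cells together, Xcr1 changed by -1.04 ± 0.35 with anti-PD-1 (adjusted p = 0.203) and -0.69 ± 0.32 with the combination (adjusted p = 0.593), where 0.564% and 0.728% of genes passed. Without shared barcodes these values were 0.17 and 0.76. With only the shallower copies left out both stayed negative and did not pass. The wider cDC1 programme had 14 of its 15 genes tested in all dendritic cells. With anti-PD-1 3 of them fell and none rose by edgeR, namely Naaa (-1.39 ± 0.26), the adhesion gene Cadm1 (-1.19 ± 0.28) and Tlr3 (-1.54 ± 0.38), a receptor of double-stranded RNA, and the median was -0.07 against -0.01 over all genes. With the combination no gene of the list passed (median 0.10 against -0.02). In the combination library against the anti-PD-1 library Cadm1 (1.63 ± 0.30), Naaa (1.33 ± 0.29) and Clec9a (1.14 ± 0.31) were higher, where 0.502% of genes passed. These genes are also found in the cDC1-like cells, which numbered 35 and 18 in the anti-PD-1 and combination libraries, against 16 and 12 in PBS 1 and PBS 2. The test sums UMIs, so a class weighs in it by its UMIs and not by its cell number. The median depth of the cDC1-like cells was 4393 and 13292.5 UMIs, against 10990.5 and 17164, and so lowest in the anti-PD-1 library. The part of cell number and depth in the result was not tested. By DESeq2 few genes of any kind passed in all dendritic cells. There were 1 with anti-PD-1, 1 with the combination and 7 between the treated libraries, against 55, 71 and 49 by edgeR.

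Flt3 was highest in the CCR7 DC-like cells, mature dendritic cells marked by Ccr7, Fscn1 and Ccl22. They held 290 and 410 CPM in the anti-PD-1 and combination libraries, against 361 and 290 CPM in PBS 1 and PBS 2, and stood above all other classes in each library. The pDC-like cells had 161 and 222 CPM, against 151 and 42.3 CPM, and cDC1-like cells 139 and 253 CPM, against 73.6 and 100 CPM. A further 2 dendritic clusters with these genes were left without a cell type name. Of the cDC2 markers, Cd209a alone stood among the 10 leading genes of one, behind Lyz2, F13a1, Ccl9, Ccl6 and Fn1, and none stood among those of the other, which Ifitm1, Gbp2 and Cxcl9 led. The Lyz2 cluster, whose leading genes are mostly known from monocytes, had 106 and 139.6 CPM of Flt3 in 55 and 31 cells, against 90.3 and 114 CPM in 34 and 34 cells. The Ifitm1 cluster had 57.1 and 36.9 CPM in 46 and 43 cells, against 65.0 and 72.7 CPM in 22 and 27 cells. Both are counted among all dendritic cells. So is another small cluster without a name, with 10 and 12 cells in the anti-PD-1 and combination libraries, against 9 and 9. Over all libraries it held 216 CPM of Flt3, beside 501 CPM of Siglech and 3833 CPM of Tcf4. The ranges of the pDC-like, cDC1-like and Lyz2 cluster cells overlapped. B cells held 10.4 to 21.6 CPM and monocytes and macrophages 2.60 to 3.98 CPM. In cDC1-like cells the combination library was the highest, with 64 UMIs in 18 cells (interval 195 to 323 CPM), and both treated libraries lay above both PBS libraries, also without shared barcodes (144 and 253 CPM, against 59.9 and 137 CPM). In CCR7 DC-like cells the Flt3 change was -0.11 ± 0.32 with anti-PD-1 and 0.32 ± 0.31 with the combination (adjusted p = 0.975 and 0.998; 0.432% and 0.306% of genes passed), and the first was 0.04 without PBS 1. Over all dendritic cells it was 0.06 ± 0.22, or -0.10 without PBS 2, and 0.43 ± 0.21 (adjusted p = 0.989 and 0.623). The other growth factor receptors and signal genes tested with Flt3 in all dendritic cells, 8 of 11 with enough counts, gave no call.

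**Figure D3:**
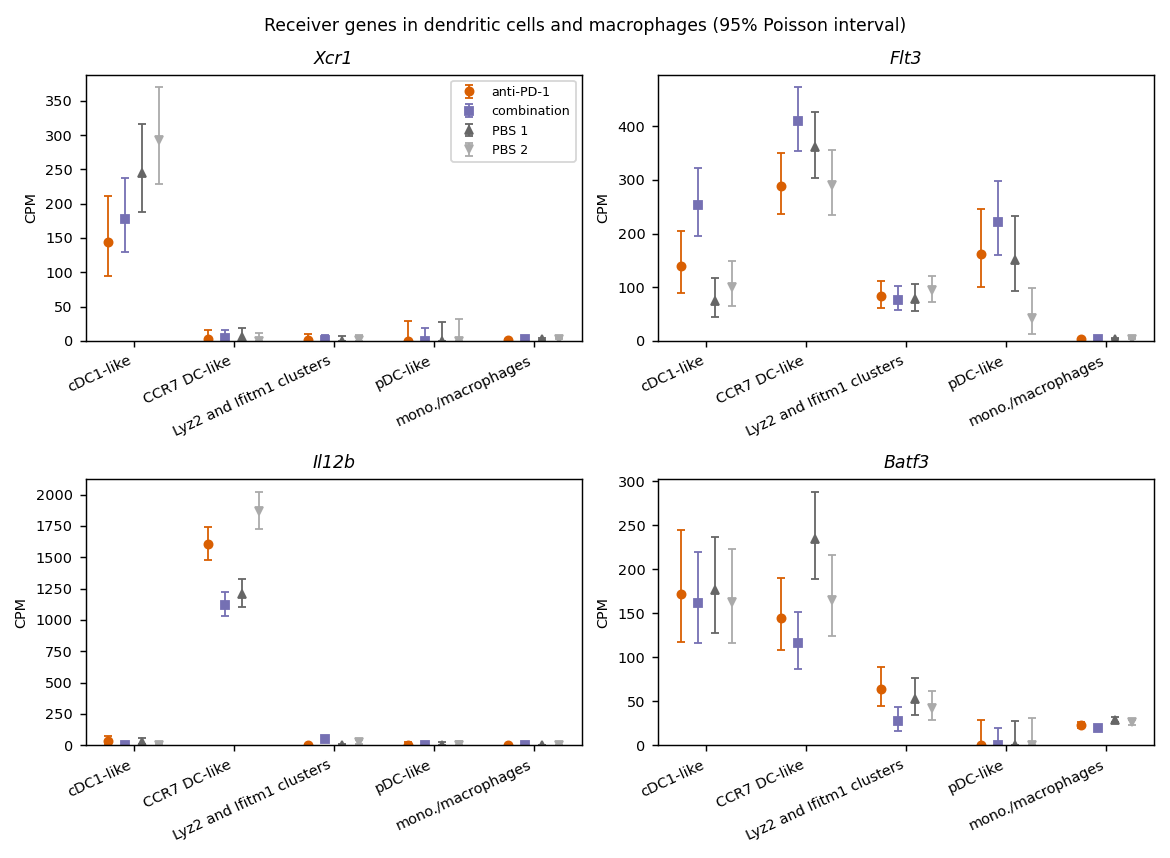
Xcr1, Flt3, Il12b and Batf3 in dendritic cell classes and in monocytes and macrophages by library, in CPM with exact 95% Poisson intervals, the Lyz2 and Ifitm1 clusters pooled. Xcr1 stands at 144 CPM or more in cDC1-like cells and at 5.16 CPM or less in the other dendritic classes, and Il12b stands above 1100 CPM in CCR7 DC-like cells of every library.

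Batf3 was found at like levels in the cDC1-like and CCR7 DC-like cells. The cDC1-like cells had 172 and 162 CPM in the anti-PD-1 and combination libraries, against 176 and 163 CPM in PBS 1 and PBS 2, so the 4 libraries lay close together. CCR7 DC-like cells had 145 and 116 CPM, against 235 and 165 CPM, both treated libraries below both PBS libraries. The log2 changes there were -0.41 ± 0.38 with anti-PD-1 and -0.80 ± 0.38 with the combination (adjusted p = 0.901 and 0.899). Over all dendritic cells they were -0.05 ± 0.25, or 0.23 without PBS 1, and -0.58 ± 0.25 (adjusted p = 0.989 and 0.514). The Lyz2 cluster held 99.1 and 49.3 CPM of Batf3, against 82.8 and 64.5 CPM, the Ifitm1 cluster 20.4 and 13.2 CPM, against 20.3 and 19.0 CPM, and monocytes and macrophages 22.6 and 20.02 CPM, against 29.2 and 26.2 CPM. No Batf3 UMI was counted in 22 and 21 pDC-like cells of the anti-PD-1 and combination libraries, which allows a share of up to 13.6% and 14.3% of cells with a UMI, against 0 of 14 and 10 cells in PBS 1 and PBS 2, which allows up to 21.4% and 30.0%. The monocyte and macrophage change with the combination was -0.44 ± 0.15 (adjusted p = 0.0582).

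In CD8 T cells Batf3 passed the test with anti-PD-1 from few molecules. There were 48 and 58 UMIs in the anti-PD-1 and combination libraries, against 17 and 10 in PBS 1 and PBS 2, in 16 and 24 cells, against 13 and 8. The change was 1.91 ± 0.47 with anti-PD-1 (adjusted p = 0.0057) and 1.30 ± 0.46 with the combination (adjusted p = 0.105). Of the UMIs 37 and 41, against 10 and 2, lay in a cluster of cycling cells led by Hist1h1b and Mki67, where single cells held up to 10 and 15 UMIs. Macrophages also express Batf3. The summed level of the 6 macrophage markers, all detected in CD8 T cells, was 37.0 and 49.1 CPM, against 60.5 and 38.1 CPM, and its part in the result was not tested. The anti-PD-1 call was lost when the clustering included the 6 genes (1.93, adjusted p = 0.0554), when no doublets were removed (1.99, adjusted p = 0.0568) and when the Ifng Ccl4 cluster was left out (2.35 ± 0.59, adjusted p = 0.0731). Without that cluster the combination value was 1.77 ± 0.58 (adjusted p = 0.193). With shared barcodes left out the combination change in all CD8 T cells passed (1.99, adjusted p = 0.0200), as did both changes without the cluster (3.96 and 3.41, adjusted p = 0.0114 and 0.0139).

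Il12b was found mainly in CCR7 DC-like cells. In these CCR7 DC-like cells 576 and 512 UMIs were counted in 54 and 46 cells of the anti-PD-1 and combination libraries, against 468 and 599 UMIs in 34 and 26 cells of PBS 1 and PBS 2. The levels were 1604 and 1122 CPM, against 1208 and 1868 CPM, so the treated libraries lay within the range of the PBS pair or below it by less than the pair's own gap. The share of these cells with an Il12b UMI was 68.5% and 71.7%, against 67.6% and 76.9%, and 45.8% and 39.1%, against 33.3% and 46.2%, after thinning to 1000 UMIs. In NK cells, which do not make it, the share was at most 0.118%. Single cells weighed heavily. The cell with the most Il12b held 66 and 96 UMIs in the anti-PD-1 and combination libraries, against 136 and 215 UMIs in PBS 1 and PBS 2. The log2 change was 0.12 ± 0.23 with anti-PD-1 and -0.47 ± 0.23 with the combination (adjusted p = 0.964 and 0.937). Without PBS 1 the first was -0.18 and the second -0.76, and without PBS 2 they were 0.49 and -0.10.

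The CCR7 DC-like cells fell into a smaller and a larger subcluster. The smaller, led by genes that include Cd81 and Laptm4b, had 13 and 7 cells in the anti-PD-1 and combination libraries, against 3 and 2, and held Il12b at 2512 and 2997 CPM, against 2815 and 3048 CPM. The larger held 1143 and 538 CPM, against 882 and 1717 CPM. Over all libraries 113 of the 160 CCR7 DC-like cells had an Il12b UMI, 129 a Flt3 UMI and 96 a Batf3 UMI, and 90 had both Il12b and Flt3. Only 5 had an Xcr1 UMI. Of the 81 cDC1-like cells 40 had an Xcr1 UMI, 46 Flt3, 51 Batf3 and 5 Il12b, and 32 had both Xcr1 and Flt3. In the Lyz2 and Ifitm1 clusters together the 31 Il12b UMIs of the combination library and the 15 of PBS 2 each came from 1 cell. Among the 15 genes of dendritic maturation and T cell priming tested in CCR7 DC-like cells, Ccl17, a ligand of CCR4, fell with anti-PD-1 (-1.53 ± 0.40, adjusted p = 0.034) and with the combination (-2.13 ± 0.41, adjusted p = 0.00033), at 96.0 and 63.1 TMM-scaled CPM, against 356 and 196. Nothing else in that list passed, and its median was 0.26 with anti-PD-1 and -0.02 with the combination, against -0.03 and -0.02 over all genes. The summed cDC2 markers, which include Ccl17, stood at 142 and 105 CPM in these cells, against 410 and 321 CPM, and the summed macrophage markers at 256 and 101 CPM, against 46.4 and 40.5 CPM. Their part in the result was not tested. Over all dendritic cells 15 genes of the list were tested. With anti-PD-1 3 passed, where 0.564% of all genes did. Ccl22, the other ligand of CCR4, rose (0.76 ± 0.20), while Ccl17 (-1.71 ± 0.30) and the CXCR3 ligand Cxcl10 (-0.85 ± 0.22) fell. With the combination 2 passed, where 0.728% of all genes did. Il15ra, which presents IL-15, rose (0.86 ± 0.24) and Ccl17 fell (-1.08 ± 0.27). These sums pool classes with unlike levels. Over all libraries Ccl22 had 651 and 1980 CPM in the larger and smaller CCR7 subclusters and 7.64 CPM in cDC1-like cells. The part of the class mix in these changes was not tested.

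Monocytes and macrophages gave a further Il12b call from very few molecules. They held 9 and 24 UMIs in 3 and 5 cells of the anti-PD-1 and combination libraries, against 0 and 7 UMIs in 0 and 4 cells of PBS 1 and PBS 2. The zero in PBS 1 allows a share of up to 0.343% of its 875 cells. The fitted change was 2.75 ± 0.78 with the combination (adjusted p = 0.0185) and 1.91 ± 0.94 with anti-PD-1 (adjusted p = 0.199). All PBS UMIs behind these values lay in PBS 2. One cell held 15 of the 24 UMIs. The 7 markers of mature CCR7 dendritic cells, all detected, summed to 61.2 and 79.9 CPM, against 69.9 and 74.5 CPM. Without PBS 1 the combination value was 1.79. Without PBS 2 it was 7.43, a value that depends on the prior count because PBS 1 had no UMI. Only 4 of 10 alternative analyses put the combination change past the threshold. Genes of the IL-12 family and its receptors were higher in the same class. With anti-PD-1 4 of 8 tested rose, where 13.6% of all genes passed, namely Il27 (0.69 ± 0.17), the receptor chains Il12rb1 (0.94 ± 0.26) and Il12rb2 (0.56 ± 0.13), and the kinase gene Jak2 (0.31 ± 0.10), with a median of 0.44. With the combination 5 of 8 rose, where 8.37% of all genes passed, the same 4 (0.55 ± 0.16, 1.02 ± 0.24, 0.73 ± 0.12 and 0.53 ± 0.10) and Stat4 (0.76 ± 0.12), the transducer of IL-12 signals, with a median of 0.54. The medians over all genes were 0.00 and -0.02. Il12rb1, Il12rb2 and Stat4 are also T cell and NK cell genes. The summed T cell markers in this class were 49.6 and 163 CPM in the anti-PD-1 and combination libraries, against 73.7 and 56.9 CPM. They thus lay below both PBS libraries with anti-PD-1 and above both with the combination. Their part in these changes was not tested. In CCR7 DC-like cells and in all dendritic cells no gene of that list passed by edgeR, of 6 and 8 tested.

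Sources and receivers were also set against each other by cell number. NK cells were 48.7% and 54.5% of the CD45-positive CD3-negative cells in the anti-PD-1 and combination libraries, against 42.9% and 42.3% in PBS 1 and PBS 2. The cDC1-like cells were 1.02% (exact 95% interval 0.713 to 1.42) and 0.513% (0.304 to 0.810), against 0.689% and 0.598%, with intervals that overlap in all 4 libraries. There were thus 47.7 and 106 NK cells for each cDC1-like cell, against 62.3 and 70.8, and 30.9 and 41.6 for each CCR7 DC-like cell, against 29.3 and 32.7. With the shallower copies of shared barcodes left out, the anti-PD-1 share of cDC1-like cells was 0.8005%, against 0.606% and 0.550% in PBS 1 and PBS 2. With all shared barcodes left out the cDC1-like share was 0.804% and 0.516% in the anti-PD-1 and combination libraries, against 0.439% and 0.410% in PBS 1 and PBS 2. Both treated libraries then lay above both PBS libraries, on 27 and 18 cells, against 9 and 7, and the NK cells for each cDC1-like cell numbered 61.1 and 106, against 99.9 and 106. With all cells, CCR7 DC-like cells were 1.58% and 1.31%, against 1.46% and 1.29%, and with shared barcodes left out 1.52% and 1.29%, against 1.46% and 1.52%. These intervals cover counting error only.

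Across 52 sums of a class in a library, from 15 classes and with at least 20 cells each, the genes most like each member were found among 14044 genes by Pearson's r of log2(CPM + 1). The sums of one library share its depth and those of one class its cells, so r is a description. Xcl1 was most like Samd3 (r = 0.893), Nrarp (0.890) and Eomes (0.884), the T-box regulator of NK cells. Il12b was most like Bcl2l14 (0.963) and the chemokine gene Ccl22 (0.953), Batf3 most like Tspan33 (0.961) and Htr7 (0.946), and Flt3 most like Pkib (0.916) and Syngr2 (0.913). The closest genes to Flt3l were Ubxn11 (0.856) and Smyd3 (0.855). For Xcr1 the highest r was 0.737. Among the members themselves Il12b and Batf3 (0.768), Flt3 and Batf3 (0.721), Flt3 and Il12b (0.720) and Xcl1 and Flt3l (0.681) were the most alike.

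In all, 27 pairs of a member and a class could be tested for each treatment. With anti-PD-1 the one past the threshold was Batf3 in CD8 T cells, where 5.58% of all genes passed. With the combination these were Xcl1 and Il12b in monocytes and macrophages, where 8.37% passed. None of the NK, CD8 T cell or dendritic values of Xcl1, Xcr1, Flt3 and Il12b passed with the chosen settings, which does not show that they were equal. Some passed in alternatives, as given for Xcl1 above, and with no doublets removed Il12b over all dendritic cells passed with the combination (3.10 ± 0.75, adjusted p = 0.0102). That run clustered the cells anew, so its classes may hold other cells. In the other 10 tested alternatives this Il12b change was negative, down to -0.23, and did not pass.

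**Figure D4:**
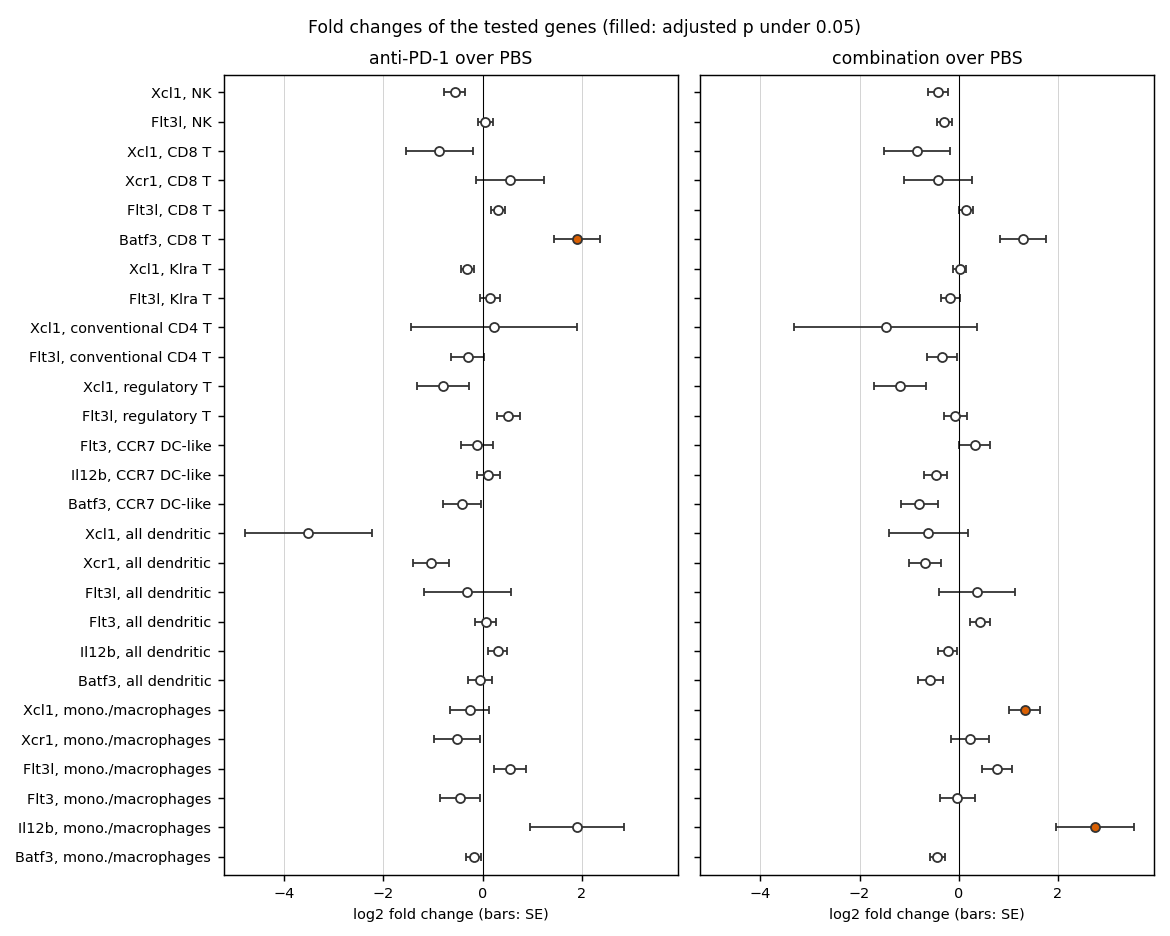
Log2 fold changes over PBS of the 6 genes in each tested class, anti-PD-1 on the left and the combination on the right, filled where past the threshold, with standard errors from edgeR's quasi-likelihood fit. The 3 values past the adjusted threshold of 0.05 are Batf3 in CD8 T cells with anti-PD-1 (1.91) and Xcl1 (1.33) and Il12b (2.75) in monocytes and macrophages with the combination.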

How the data were processed

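Gene counts per barcode were deposited by the authors as UMI counts, made with Cell Ranger 7.1.0 per the file headers, while version 3.0.2 and build mm10 are given per the submitters' processing notes. Barcodes with at least 200 genes and at most 15% mitochondrial UMIs were kept. Scrublet's automatic threshold marked 0 to 2 barcodes in 3 libraries, so the highest scores were removed at 0.8% per 1000 barcodes. Cells were clustered with scanpy 1.11.5 (2000 variable genes without the 6 members, 30 or 20 components, 20 neighbours, resolutions 1.0, 1.5, 0.8 and 0.5, seed 1) and classes were named from marker levels, so a difference from the study may come from the rebuilt names. Clusters with a median under 2000 UMIs were left out of the classes. Depth ranged from 78648222 to 142600208 UMIs per library.

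Counts were summed per class and library with at least 20 cells and compared by the quasi-likelihood test of edgeR 4.0.16 (R 4.3.3; TMM scaling, filterByExpr with a minimum count of 10, Benjamini-Hochberg, threshold 0.05), and the code was tested on simulated data. The counts of the 2 PBS libraries differed beyond sampling noise (chi-square per degree of freedom 64.2), so they were kept as 2 samples. CPM are UMIs scaled to the same total in every class and library, with exact 95% Poisson intervals, and intervals and 3-count limits cover counting error only. Shares were repeated after thinning cells to 1000 UMIs. The members and gene lists were chosen with earlier results of these data known. The genes named are the 6 members, list genes past the threshold, the 5 genes most like each member (at least 10 CPM in a sum), and up to 5 genes with the smallest adjusted p in NK cells per comparison. Cluster-leading genes, class markers and a few low counts were named after their values were seen. The alternatives were other size factors, DESeq2 1.42.0, no filter, library totals, thinned sums, doublets kept, low-UMI clusters kept, 1.5 times the resolution, a PBS library left out and shared barcodes left out. The classes of Klra T cells, ILC1-like and conventional NK cells and CD8 T cells without the Ifng Ccl4 cluster, fold changes after clustering with the members, and leaving out the shallower copies were chosen after seeing the data.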

Additional observations from a re-analysis of the deposited data

Results flagged for a closer look

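For 7 combinations of a gene and a treatment, the treated library lay above both PBS libraries in at least 1 class and below both in another, and the pair of classes with the widest gap is given for each. These differences between classes were not tested, rest on 1 treated library each, and are log2 ratios of the treated level to the mean PBS level. With the combination, Xcl1 stood at 1.30 in monocytes and macrophages and -1.24 in regulatory T cells, a difference of 2.545. With anti-PD-1, Xcr1 stood at 0.47 in CD8 T cells and -0.63 in monocytes and macrophages, a difference of 1.10. With anti-PD-1, Flt3l stood at 0.46 in regulatory T cells and -0.36 in conventional CD4 T cells, a difference of 0.82. With the combination, Flt3l stood at 0.75 in monocytes and macrophages and -0.34 in conventional CD4 T cells, a difference of 1.09. For Flt3 and the combination, CCR7 DC-like cells stood at 0.33 and monocytes and macrophages at -0.063, a difference of 0.39. For Batf3, CD8 T cells stood at 1.81 and CCR7 DC-like cells at -0.47 with anti-PD-1, a difference of 2.28. With the combination the Batf3 values were 1.28 in CD8 T cells and -0.78 in CCR7 DC-like cells, a difference of 2.06.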

How the results depend on the processing

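For 105 results, 1353 log2 changes of the members were recomputed under the alternatives. Of these 1245 were labelled the same, 15 lost the call, 27 gained it, 35 moved beyond the spread and 31 changed sign. Tested values were labelled the same if they kept direction and call. Values without an adjusted p, as with a PBS library left out, have no call to keep. They were labelled the same within 1 SE of the chosen value, whatever their sign, unless the chosen value had passed. The 31 therefore leave out some changes of sign. Unless stated, the cause was not tested. No paired analysis was possible because each treatment has 1 library. Leaving out 1 PBS library leaves no residual degree of freedom, so those values have no test. They ran, for anti-PD-1 and then the combination, from 1.49 to 2.44 and 0.87 to 1.84 for Batf3 in CD8 T cells, -0.18 to 0.49 and -0.76 to -0.10 for Il12b in CCR7 DC-like cells, 0.95 to 6.59 and 1.79 to 7.43 for Il12b in monocytes and macrophages, -0.79 to -0.27 and -0.65 to -0.14 for Xcl1 in NK cells, and -0.69 to 0.36 and 0.89 to 1.94 for Xcl1 in monocytes and macrophages. For Batf3 in all dendritic cells they ran from -0.29 to 0.23 with anti-PD-1 and -0.82 to -0.29 with the combination. With anti-PD-1, Batf3 in CD8 T cells was 1.93 when clustered with the members and 1.99 with doublets kept, both short of the threshold. With the combination it passed at 1.99 without shared barcodes. Batf3 in all dendritic cells with anti-PD-1 was 0.027 at the higher resolution, 0.023 with doublets kept and 0.073 without shared barcodes. Flt3 there was -0.012 with library totals and -0.011 without shared barcodes, and Xcr1 was 0.17 with anti-PD-1 and 0.76 with the combination without shared barcodes. Il12b in monocytes and macrophages passed with anti-PD-1 at 3.74 with doublets kept. With the combination its call was lost at 2.31 (thinned sums), 2.82 (higher resolution), 2.71 (library totals), 1.66 (doublets kept), 2.76 (no filter) and 3.59 (no shared barcodes). With library totals Xcl1 passed with anti-PD-1 at -0.96 in CD8 T cells and -0.64 in NK cells. In monocytes and macrophages Xcl1 was 0.86 with anti-PD-1 without shared barcodes, and with the combination 1.34 by DESeq2, 1.30 with library totals, 1.34 with no filter and -0.057 with doublets kept. Other changes of sign among the tested alternatives, none past the threshold in the chosen analysis, follow. Without shared barcodes Flt3l was -0.049 in CD8 T cells and -0.056 without the Ifng Ccl4 cluster (combination), -0.0054 in NK cells (anti-PD-1), Xcl1 0.13 in regulatory T cells and Xcr1 0.79 in monocytes and macrophages (anti-PD-1). With library totals Flt3l was -0.029 in NK cells (anti-PD-1) and 0.023 in conventional CD4 T cells (combination over anti-PD-1), where clustering with the members gave 0.097. At the higher resolution Flt3 was 0.012 in monocytes and macrophages and Xcl1 -0.037 in Klra T cells (combination). With doublets kept, the combination gave Flt3 0.045, Xcr1 -0.25 in monocytes and macrophages, Flt3l 0.016 in regulatory T cells, Il12b 3.10 in all dendritic cells (past the threshold, adjusted p = 0.0102), Xcl1 -0.083 in Klra T cells and 0.016 in conventional CD4 T cells. Anti-PD-1 gave Flt3l 0.010 in all dendritic cells and Xcl1 -0.70 in conventional CD4 T cells. The combination over anti-PD-1 then gave Il12b 2.07 in all dendritic cells and -2.08 in monocytes and macrophages, and Xcl1 0.061 in CD8 T cells without the Ifng Ccl4 cluster and 0.71 in conventional CD4 T cells. Counts of genes past the threshold depended on the tool and filter. With anti-PD-1 and then the combination, 814 and 596 genes in CD8 T cells became 90 and 61 by DESeq2. In monocytes and macrophages 1993 and 1223 became 0 and 0 without a filter. By DESeq2 24 and 17 in CCR7 DC-like cells became 0 and 0, and 55 and 71 in all dendritic cells became 1 and 1. At 12 to 35 cDC1-like cells per library, depth and cell number limit every value of Xcr1.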

Other observations

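A cluster kept out of the classes carried T cell and dendritic genes together, with 20 and 5 cells in the anti-PD-1 and combination libraries, against 1 and 17 in PBS 1 and PBS 2. Among its leading genes were Camk4, Trbc2, Gzmb and Nkg7. It held 1404 CPM of Il12b, 232 of Flt3, 94.3 of Batf3 and 50.6 of Xcl1 over all libraries, beside 1369 CPM of Ccr7 and 274 of Cd3e. Whether its cells are doublets was not tested.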
